A study of Mus musculus with 8 samples.

Results

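The genes described here are 10 transcripts typical of fat cells, Adipoq, Plin1, Plin4, Fabp4, Cfd, Lep, Retn, Cidec, Car3 and Lpl, as measured in pancreatic tissue of Bach2-deficient and wild-type mice. They were picked by name and not by a cut-off on their values, although earlier results of these data were known. They make up 10 of the 21434 genes in the deposited table. RNA-seq covered 4 Bach2KO mice, homozygous knockouts of the strain C57BL/6N-Bach2tm1b(EUCOMM)Wtsi/leg, and 4 Bach2WT mice of the same background. All 8 mice were untreated and 18 weeks old, and mice 1 and 2 of each genotype were females, mice 3 and 4 males. The deletion is constitutive and affects every cell type, so that a difference between the genotypes cannot be assigned to a cell type. The libraries were made from pieces of pancreatic tissue and not from sorted cells. In such bulk tissue, fewer adipocytes and less RNA per adipocyte cannot be told apart.

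White adipocytes store triglyceride in a large lipid droplet. The droplet is coated by perilipins, which control access of lipases, and is enlarged by the fusion protein CIDEC. Fatty acids reach the cell through lipoprotein lipase at the capillary wall and are carried inside it by FABP4. Adipocytes also secrete hormones and other proteins, among them adiponectin, leptin, resistin and adipsin (complement factor D). In mice the pancreas lies within visceral fat and has no firm capsule, and adipocytes can also be found between its lobules.

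The libraries held 72299745 to 172029360 counts on genes, so that a count of 0 allowed a level of up to 0.0174 to 0.0415 CPM (the share of a library's counts on genes, scaled to a fixed total; 3 counts, counting error only). All other CPM values here were also divided by edgeR's TMM factors (0.826 to 1.176), which rescale the libraries to each other, and are not plain shares. On that scale the 16 acinar enzyme genes of a marker list summed to 541000 to 822000 CPM, high as in exocrine pancreas. Counts of Bach2 itself lay between 3 and 16 where the label was Bach2KO and between 4 and 31 where it was Bach2WT, too few to check the genotype labels, and the part of the gene these counts come from is unknown. In an edgeR quasi-likelihood test of genotype, 1 of 12820 genes passed an adjusted p of 0.05. Of the counts between 1 and 200, 63.5% to 66.5% were even, so that both mates of a read pair may have been counted and the number of independent fragments may be lower.

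The promoters of a pair of adipokine genes are shown because Adipoq and Lep, the hormone genes most specific to fat cells, were each absent from at least 4 of the 8 libraries. RefSeq's table of start-site windows (GRCm38.p6, 250 bases before to 50 after the start) held 7 of the 10 members, with 8 windows. The Adipoq window, chr16:23146286-23146585 on the plus strand, is shown with its CCAAT boxes (CCAAT, or ATTGG where the box lies on the other strand) in capitals. The Lep window, chr6:29059971-29060270 on the plus strand, is shown with the palindrome TTGCGCAA, to which C/EBP factors can bind, in capitals.
Adipoq: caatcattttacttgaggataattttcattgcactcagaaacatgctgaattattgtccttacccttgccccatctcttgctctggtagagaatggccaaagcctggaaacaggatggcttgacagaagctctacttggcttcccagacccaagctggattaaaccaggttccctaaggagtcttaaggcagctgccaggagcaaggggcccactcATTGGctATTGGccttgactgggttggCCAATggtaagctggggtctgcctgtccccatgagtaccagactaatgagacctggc
Lep: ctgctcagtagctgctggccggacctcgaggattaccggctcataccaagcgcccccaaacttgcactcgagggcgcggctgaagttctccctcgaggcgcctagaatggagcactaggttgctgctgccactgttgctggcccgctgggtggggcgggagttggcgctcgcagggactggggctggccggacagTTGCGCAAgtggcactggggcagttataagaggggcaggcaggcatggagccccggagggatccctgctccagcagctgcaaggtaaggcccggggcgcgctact
The CCAAT boxes of Adipoq began 34 and 27 bases before the start on the minus strand and 7 bases before it on the plus strand, and 37.4% of all 32851 windows held this motif on either strand. TTGCGCAA began 55 bases before the Lep start and was found in 60 of the 32851 windows (0.183%). Of the other members, Plin4 held a CCAAT box. TATAAA (13.6% of windows) and AGGTCA (16.3%), a core site of nuclear receptors such as the PPARs, were found in 0 of the 8 windows of the members on either strand. A match of letters is a description of the window and not a binding site.

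Within each genotype the adipocyte genes ran from high values in some mice to absence or near absence in others, as the plot of FPKM values by mouse shows. Of the 10 genes, 5 were highest in Bach2WT mouse 1, 3 in Bach2WT mouse 2 and 2 in Bach2KO mouse 1, which are all females. These 3 libraries held 9 of the 10 genes among their 3 highest values each. In Bach2KO mice 2 and 3, 7 of the 10 genes had 0 counts, against 3 in Bach2KO mouse 4, 3 in each Bach2WT male, 1 in Bach2KO mouse 1 and 0 in the Bach2WT females. Summed over the 10 genes, FPKM was 11.9, 1.43, 1.54 and 2.83 in Bach2KO mice 1 to 4 and 19.2, 13.8, 4.31 and 1.75 in Bach2WT mice 1 to 4. The genotypes thus overlapped, with Bach2KO mouse 1 far above the other Bach2KO mice and Bach2WT mouse 4 among the low libraries.

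**Figure D1:**
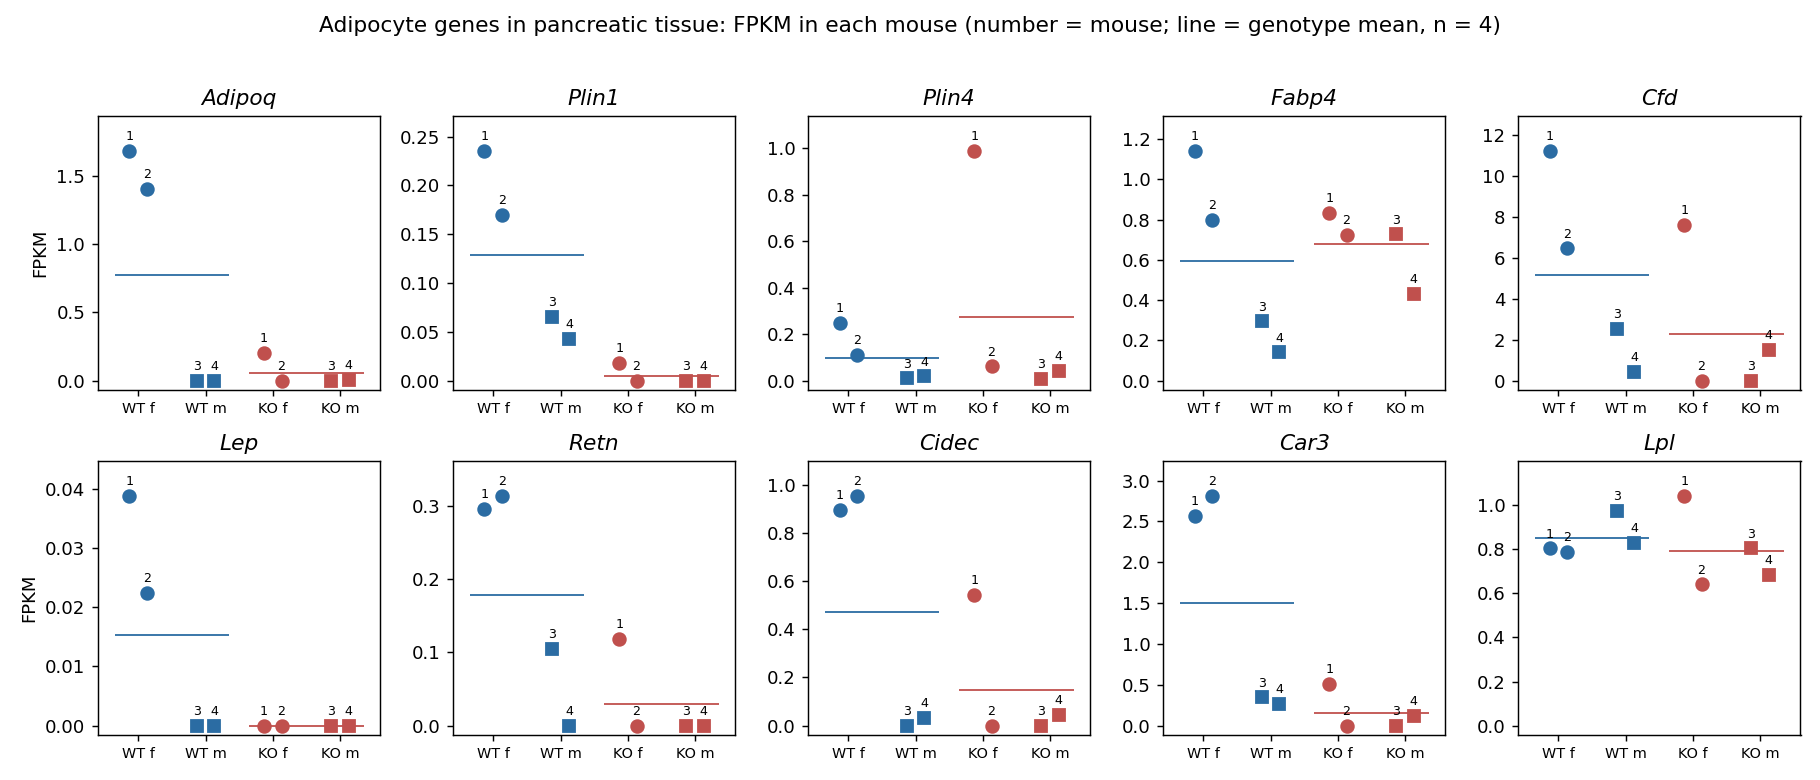
FPKM of the 10 adipocyte genes (vertical axis, linear, scaled per gene) in each mouse, with circles for females (f), squares for males (m), the mouse number above each point and a line at the mean of each genotype (n = 4). Most genes were high in both Bach2WT females and, to a varying extent, in Bach2KO mouse 1. Lpl, Fabp4 and Plin4 were detected in all 8 mice.

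Among the secreted products, Adipoq (ENSMUSG00000022878; chromosome 16 of GRCm39, 22965286 to 22976778), which encodes adiponectin, had 215 and 259 counts in the Bach2WT females and 0 in both Bach2WT males. Its counts in Bach2KO mice 1 to 4 were 48, 0, 0 and 2. As FPKM these were 1.69 and 1.41 in the Bach2WT females, 0.204 in Bach2KO mouse 1 and 0.00733 in Bach2KO mouse 4. Both genotypes therefore held libraries with and without the transcript, and 93.6% of its summed FPKM lay in the Bach2WT females. Adipoq did not pass edgeR's filter on low counts in the genotype comparison. The edgeR fit without this filter gave a log2 fold change of −3.66 for Bach2KO against Bach2WT (standard error 1.08, Benjamini-Hochberg adjusted p = 0.202).

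Lep (ENSMUSG00000059201; chromosome 6, 29060219 to 29073876), the gene of the satiety hormone leptin, had 12 and 10 counts in the Bach2WT females and 0 in the other 6 libraries. In FPKM the Bach2WT females had 0.0388 and 0.0224. The gene was detected in Bach2WT females alone, at levels close to what the depth could show. In the Bach2WT females Lep counts were 5.58% and 3.86% of the Adipoq counts, and these shares of the 48 Adipoq counts in Bach2KO mouse 1 would be 2.68 and 1.85 Lep counts, below the 3 counts that a value of 0 allows. Relative to Adipoq, its absence from Bach2KO mouse 1 was therefore not detectable as a difference at this depth. That share depends on Adipoq as the reference, since several other members had higher ratios to Adipoq in this mouse. As a level, 0 counts in Bach2KO mouse 1 allowed up to 0.0218 CPM (without TMM factors). The Bach2WT females had 0.133 and 0.0762 CPM of Lep, above that floor.

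Retn (ENSMUSG00000012705; chromosome 8, 3705770 to 3710110), which encodes resistin, had 43, 66, 24 and 0 counts in Bach2WT mice 1 to 4, or 0.296, 0.314, 0.105 and 0 FPKM. In Bach2KO mice it had 32 counts (0.119 FPKM) in mouse 1 and 0 in mice 2 to 4. Bach2KO mouse 1 thus lay above both Bach2WT males. The log2 fold change of Bach2KO against Bach2WT was −2.43 (standard error 1.47, edgeR adjusted p = 0.772). Without Bach2KO mouse 1 it was −8.02, where all other Bach2KO libraries were at 0 and the fitted value depends on the prior count.

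Cfd (ENSMUSG00000061780; chromosome 10, 79726687 to 79728489), the serine protease adipsin, was the most abundant of the 10 genes per length. Its FPKM was 11.3, 6.46, 2.52 and 0.418 in Bach2WT mice 1 to 4 and 7.60, 0, 0 and 1.499 in Bach2KO mice 1 to 4. Both genotypes spanned low to high values, and Bach2KO mouse 1 exceeded Bach2WT mouse 2. With all mice the log2 fold change was −1.12 (standard error 1.21, edgeR adjusted p = 0.908), with −3.21 without Bach2KO mouse 1 and −0.40 without Bach2WT mouse 1.

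Of the genes of the lipid droplet, Plin1 (ENSMUSG00000030546; chromosome 7, 79369966 to 79382651), the main perilipin of white adipocytes, was the 1 member in which the genotypes did not overlap. It had 101, 105, 44 and 14 counts in Bach2WT mice 1 to 4, or 0.236, 0.169, 0.0653 and 0.0430 FPKM. In Bach2KO mice it had 14 counts in mouse 1 (0.0177 FPKM) and 0 in mice 2 to 4. All Bach2KO libraries lay below all Bach2WT libraries for 1.92% of the 12820 genes tested, against 1 of the 8 members tested. Plin1 was lower in Bach2KO mice by a log2 fold change of −4.57 (standard error 1.14, unadjusted p = 1.44e-03) and did not pass the threshold in edgeR after adjustment over all genes (adjusted p = 0.367). Without Bach2KO mouse 1, which leaves only Bach2KO libraries at 0, the fitted value was −9.10 and depends on the prior count (edgeR adjusted p = 0.0908).

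Cidec (ENSMUSG00000030278; chromosome 6, 113401595 to 113412721), whose product lets droplets fuse, had 0.895, 0.954, 0 and 0.0308 FPKM in Bach2WT mice 1 to 4. In Bach2KO mice 1 to 4 the values were 0.543, 0, 0 and 0.0436 FPKM. High and absent values occurred in both genotypes. For Bach2KO against Bach2WT the log2 fold change was −1.58 (standard error 1.43, edgeR adjusted p = 0.870).

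Plin4 (ENSMUSG00000002831; chromosome 17, 56407591 to 56416803), a perilipin of nascent droplets, showed another order of the libraries. Its FPKM was 0.989, 0.0607, 0.00819 and 0.0431 in Bach2KO mice 1 to 4 and 0.248, 0.110, 0.00869 and 0.0180 in Bach2WT mice 1 to 4. Bach2KO mouse 1 thus had the highest value, and the mean of Bach2KO mice, 0.275 ± 0.477 FPKM (SD, n = 4), rested on it, against 0.0961 ± 0.111 in Bach2WT mice. The log2 fold change was 1.58 with all mice (standard error 1.17, edgeR adjusted p = 0.821) and −1.33 without Bach2KO mouse 1, and it was 2.63 without Bach2WT mouse 1. Plin4 overlaps Hdgfl2 on the opposite strand, which had 1421 counts in Bach2KO mouse 1 and 216 to 887 in the other 7 libraries, and since the strand setting of the counting is not given in the sources used here, the Plin4 values are uncertain.

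Of the genes of fatty acid handling, Fabp4 (ENSMUSG00000062515; chromosome 3, 10269148 to 10273636), the fatty acid carrier of adipocytes, which capillary endothelium and macrophages also make, was present in all 8 libraries. Its FPKM was 1.14, 0.799, 0.294 and 0.140 in Bach2WT mice 1 to 4 and 0.832, 0.724, 0.727 and 0.429 in Bach2KO mice 1 to 4. The Bach2KO values lay within the range of the Bach2WT values. The log2 fold change was 0.21 (standard error 0.486, edgeR adjusted p = 0.961), with 0.74 without Bach2WT mouse 1 and −0.11 without Bach2WT mouse 4. The length behind these FPKM values is 4489 bases, equal to the whole span of the locus, so that Fabp4 is set low against genes counted per exon length.

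Lpl (ENSMUSG00000015568; chromosome 8, 69333143 to 69360100), the lipoprotein lipase that frees fatty acids from circulating triglyceride and is not limited to adipocytes, was the most even of the 10 genes. It had 0.804, 0.789, 0.972 and 0.830 FPKM in Bach2WT mice 1 to 4 and 1.04, 0.640, 0.804 and 0.683 FPKM in Bach2KO mice 1 to 4. The highest value was 1.63 times the lowest, against 8.17 times for Fabp4 and 121 times for Plin4. Its log2 fold change was −0.07 (standard error 0.184, edgeR adjusted p = 0.967).

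Car3 (ENSMUSG00000027559; chromosome 3, 14928572 to 14937583), a carbonic anhydrase abundant in adipocytes and in slow skeletal muscle, had 2.57, 2.82, 0.347 and 0.269 FPKM in Bach2WT mice 1 to 4. In Bach2KO mice 1 to 4 it had 0.516, 0, 0 and 0.124 FPKM. Bach2KO mouse 1 lay above both Bach2WT males and below both Bach2WT females. The log2 fold change was −3.11 (standard error 1.10, unadjusted p = 0.0140, edgeR adjusted p = 0.593), and −4.85 without Bach2KO mouse 1. Skeletal muscle markers, most of them of fast fibres, summed to 0.0483 to 0.572 CPM in the 8 libraries and to 0.515 and 0.360 CPM in the Bach2WT males, and the part of muscle in the Car3 values was not tested.

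Over the genotype comparison as a whole, 8 of the 10 members passed the filter and 0 of them passed an adjusted p of 0.05 in edgeR, where 0.0078% of all tested genes did. Of the 8 genes, 6 had lower and 2 (Plin4 and Fabp4) higher values in Bach2KO mice, with a median log2 fold change of −1.35 against 0.05 over all genes tested. At an unadjusted p under 0.05, Plin1 and Car3 were lower, and 3.56% of all tested genes were lower at that level. DESeq2 called 0 members too, where it called 0.483% of the genes to which it gave an adjusted p. Without the filter on low counts, 2 members passed, Plin1 (adjusted p = 0.0211) and Car3 (adjusted p = 0.0429, edgeR), among 73 of 21434 genes (0.341%). The call of a lower level in Bach2KO mice thus depended on the filter.

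Adipocyte genes in the Bach2WT mice differed between females and males for every gene, in that the pairs of values did not overlap. In 9 of the 10 genes both males lay below both females, and in Lpl both lay above them. Of all 12820 genes tested, which include neither Adipoq nor Lep, 18.3% had both Bach2WT males below both Bach2WT females. Most members varied together across libraries, so that they do not count as separate observations against that share. Among Bach2KO mice the males lay below the females in CPM for 2 of the 10 genes, Plin4 and Fabp4, where 21.9% of all genes tested did. Over both genotypes, males and females did not overlap in CPM for these same 2 genes. All males lay below all females for 1.97% of the genes tested. For Fabp4 this rested on 3.32 CPM in Bach2KO mouse 3 against 3.36 CPM in Bach2KO mouse 2. In FPKM these mice lay the other way, at 0.727 and 0.724, so that the sexes overlapped for Fabp4.

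With genotype as a covariate, all 8 members tested were lower in males, with a median log2 fold change of −2.57 against −0.03 over all genes tested. At an unadjusted p under 0.05, 7 of the 8 were lower in males, all but Lpl, and 3.36% of all tested genes were. Since these 7 genes varied together across libraries, they are not separate observations. After adjustment, 0 members passed in edgeR, where 0.0312% of all tested genes did. Plin4 had the smallest p, with a log2 fold change of −4.09 in males (standard error 0.782, edgeR adjusted p = 0.309). The others at an unadjusted p under 0.05 were Cidec (log2 fold change −4.61), Retn (−3.45), Car3 (−2.58), Plin1 (−2.55), Cfd (−2.44) and Fabp4 (−1.30), each with an edgeR adjusted p of 0.890. DESeq2 called Plin4 (adjusted p = 0.0172), 1 of 19 genes it called (0.129%). Without Bach2KO mouse 1 the log2 fold change of Cfd was −1.17, and without Bach2WT mouse 3, which leaves all males at 0, that of Retn was −7.37. Without the filter, edgeR called Adipoq, Plin4, Fabp4, Cfd, Cidec and Car3, 6 of the 10 members, among 0.709% of all genes. For Adipoq, Cfd, Cidec and Car3 the values of females and males overlapped, since Bach2KO mouse 2, a female, had 0 counts of each.

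**Figure D2:**
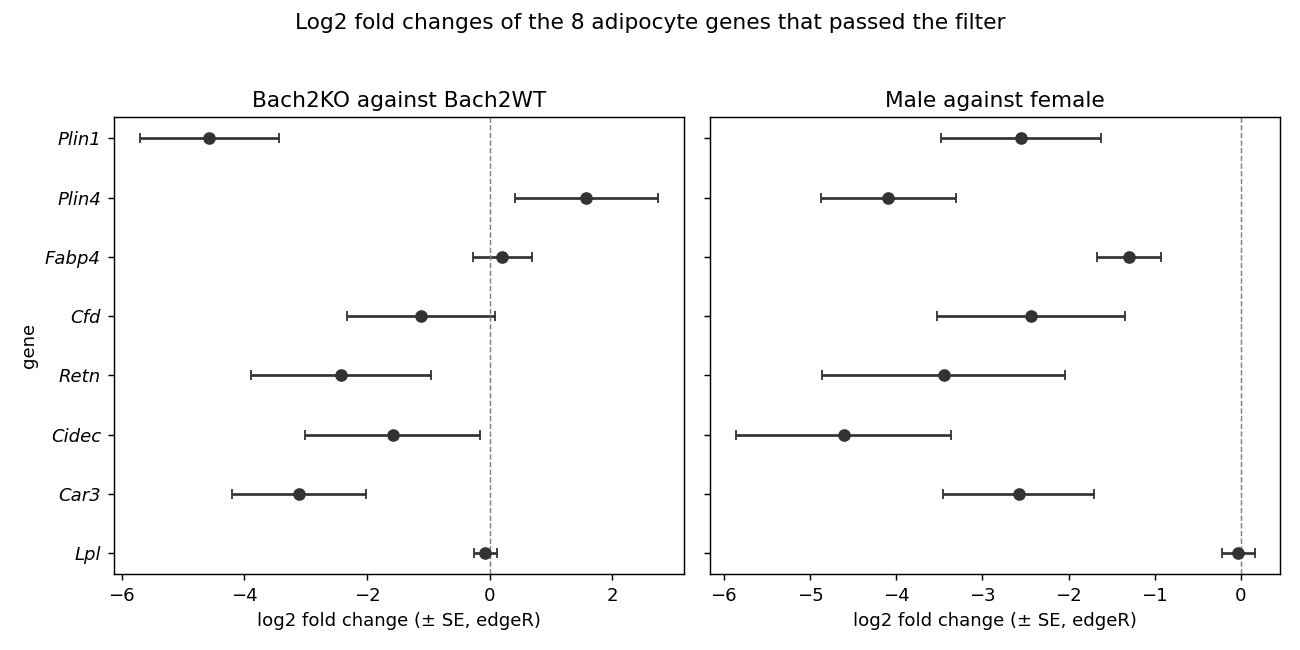
Log2 fold changes from edgeR (horizontal axis; points with bars of 1 standard error) of the 8 adipocyte genes that passed the filter, for Bach2KO against Bach2WT (left) and male against female with genotype as a covariate (right). Estimates for genotype ran from −4.57 for Plin1 to 1.58 for Plin4, those for sex were below 0 for all 8 genes, and 0 of them passed an adjusted p of 0.05.

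Since the females carried most of the signal, the genotypes were also set side by side within each sex. Among females, both Bach2KO mice lay below both Bach2WT mice for 6 of the 10 genes, where 18.2% of all genes tested did. Adipoq, Plin1, Lep, Retn, Cidec and Car3 were these 6, which varied together across libraries and are not separate observations. Among males, 3 genes (Plin1, Car3 and Lpl) lay lower and 1 gene, Fabp4, higher in both Bach2KO mice, where 17.4% of all genes tested lay lower and 19.4% higher. Fabp4 had 0.727 and 0.429 FPKM in Bach2KO males against 0.294 and 0.140 FPKM in Bach2WT males. In females the Fabp4 order was mixed, with 0.832 and 0.724 FPKM in Bach2KO against 1.14 and 0.799 FPKM in Bach2WT mice. In the test of genotype by sex, 0 of the 9 members tested passed in edgeR, where 0.0% of 14450 genes did (855 at an unadjusted p under 0.05, and 14 genes by DESeq2 after adjustment). Fabp4 had the smallest p of the members, with a difference of 1.68 between the log2 fold changes of males and females (standard error 0.551, unadjusted p = 9.56e-03, edgeR adjusted p = 0.803).

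The genes were not present in the same proportions in the 3 female libraries with over 3 Adipoq counts. Relative to Adipoq, as a ratio of FPKM values, Cfd was 6.66 and 4.59 in the Bach2WT females and 37.3 in Bach2KO mouse 1. Plin4 was 0.147 and 0.0781 in the Bach2WT females and 4.86 in Bach2KO mouse 1. Cidec was 0.530 and 0.678 in the Bach2WT females and 2.67 in Bach2KO mouse 1. By contrast, Plin1 stayed at 0.140 and 0.120 in the Bach2WT females and was 0.0866 in Bach2KO mouse 1. The ratio of Car3 was 1.52 and 2.00 in the Bach2WT females and 2.53 in Bach2KO mouse 1. Bach2KO mouse 1 thus had Plin1 and Car3 at ratios to Adipoq close to those of the Bach2WT females, and Plin4, Cfd, Cidec, Retn, Fabp4 and Lpl at higher ratios. This is 1 library, so that the difference has no replicate check. Fabp4 and Lpl were also present without Adipoq. In Bach2KO mice 2 and 3 Fabp4 had 0.724 and 0.727 FPKM and Lpl 0.640 and 0.804 FPKM. Their ratios thus depend on the Adipoq level of the library. The Plin4 ratio is uncertain, since Plin4 overlaps Hdgfl2.

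**Figure D3:**
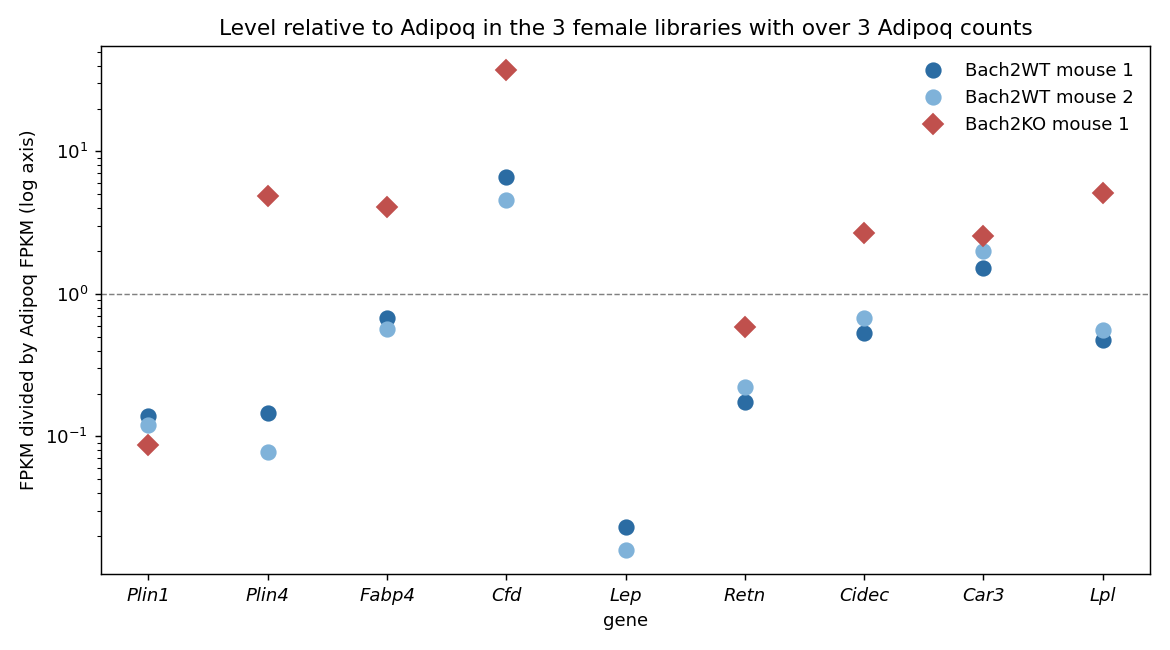
FPKM of each gene divided by the Adipoq FPKM of the same library (vertical axis, log scale; dashed line at equal levels) in both Bach2WT females (circles) and in Bach2KO mouse 1 (diamonds), the 3 libraries with over 3 Adipoq counts. Plin1 and Car3 lay close together in the 3 libraries, whereas the Plin4 ratio was 4.86 in Bach2KO mouse 1 against 0.147 and 0.0781, and Lep has no point for Bach2KO mouse 1, where its count was 0. The Plin4 values are uncertain because of the overlapping gene Hdgfl2.

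Leptin relative to adiponectin was compared as a single value per mouse, the log2 CPM of Lep minus that of Adipoq with a prior count of 2. It was −1.23 ± 2.02 in Bach2KO mice and −2.10 ± 2.44 in Bach2WT mice (SD, n = 4 each), a difference of 0.88 that did not exceed the spread (two-sided exact permutation test, p = 0.8286, smallest possible p 0.0286). In 4 of the 8 libraries both transcripts had 0 counts, and the ratio there was set by the prior count. The difference was 0.11 to 1.87 when leaving out each mouse. With Plin1 as denominator it was 2.85 (same permutation test, p = 0.0286). However, Lep had 0 counts in 6 libraries, where the ratio follows its denominator, Adipoq or Plin1. Neither version can therefore compare Lep itself between the genotypes.

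Across the 8 libraries, the log2 CPM of the members followed that of Adipoq to different degrees (Pearson's r over 8 libraries that share their depths, given as a description). The coefficient was 0.94 for Cidec, 0.89 for Lep, 0.85 for Retn, 0.77 for Car3, 0.73 for Plin4, 0.72 for Cfd, 0.71 for Plin1, 0.63 for Fabp4 and 0.21 for Lpl. Cidec, Lep and Retn, each at 0 in at least 3 libraries, stood at the top of this order. Fabp4 and Lpl stood at its end and were detected in all 8 mice, as was Plin4 in its middle. Of the tested genes outside the members, the 10 most similar to Adipoq were Srp72 (0.989), Ndufs5-ps, Ralgapa2, Scd1, Thrsp, Mical2, Tmem30b, Rb1, Chd9 and 1810053B23Rik (0.882). Some of them varied little and others more. Srp72 ranged from 1.49 to 2.19 FPKM and Ndufs5-ps from 0.403 to 1.32 FPKM. Scd1, a desaturase of fatty acid synthesis, had 2.88 and 2.37 FPKM in the Bach2WT females and 0.398 to 0.932 FPKM in the other 6 libraries, and Thrsp, a lipogenic regulator, had 0.704 and 0.521 FPKM against 0.0747 to 0.252 FPKM.

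Markers of adipocytes and of other cells in the tissue were summed in each library, and their part in the results above was not tested. The 5 adipocyte markers (Adipoq, Plin1, Cidec, Lep and Retn) summed to 1.64, 0, 0 and 0.0933 CPM in Bach2KO mice 1 to 4 and to 5.82, 5.15, 0.474 and 0.259 CPM in Bach2WT mice 1 to 4. The sum of these markers was thus above 1 CPM in 3 libraries, and in Bach2KO mice 2 and 3 all 5 markers were at 0. In Bach2KO mouse 1 most of the sum was Cidec (1.06 CPM), with Adipoq at 0.297 CPM. The 8 lymph node and B cell markers summed to 12.0 CPM in Bach2KO mouse 1 and 6.94 CPM in Bach2WT mouse 1, against 0.446 to 1.94 CPM in the other 6 libraries. Both of these mice belonged to the 3 with high adipocyte genes. Of this list, Ccl21a, a chemokine of lymphatic vessels and lymph nodes, had 5.05 FPKM in Bach2KO mouse 1 and 0.259 to 1.25 FPKM elsewhere. Cd79a, a B cell receptor chain named after its values were seen, had 1.30 FPKM in Bach2WT mouse 1, 0.571 FPKM in Bach2KO mouse 1 and 0 to 0.443 FPKM elsewhere. Glycam1, a ligand made by high endothelial venules of lymph nodes and named after its values were seen, had 1.99 FPKM in Bach2KO mouse 1 and at most 0.0211 FPKM in the others.

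**Figure D4:**
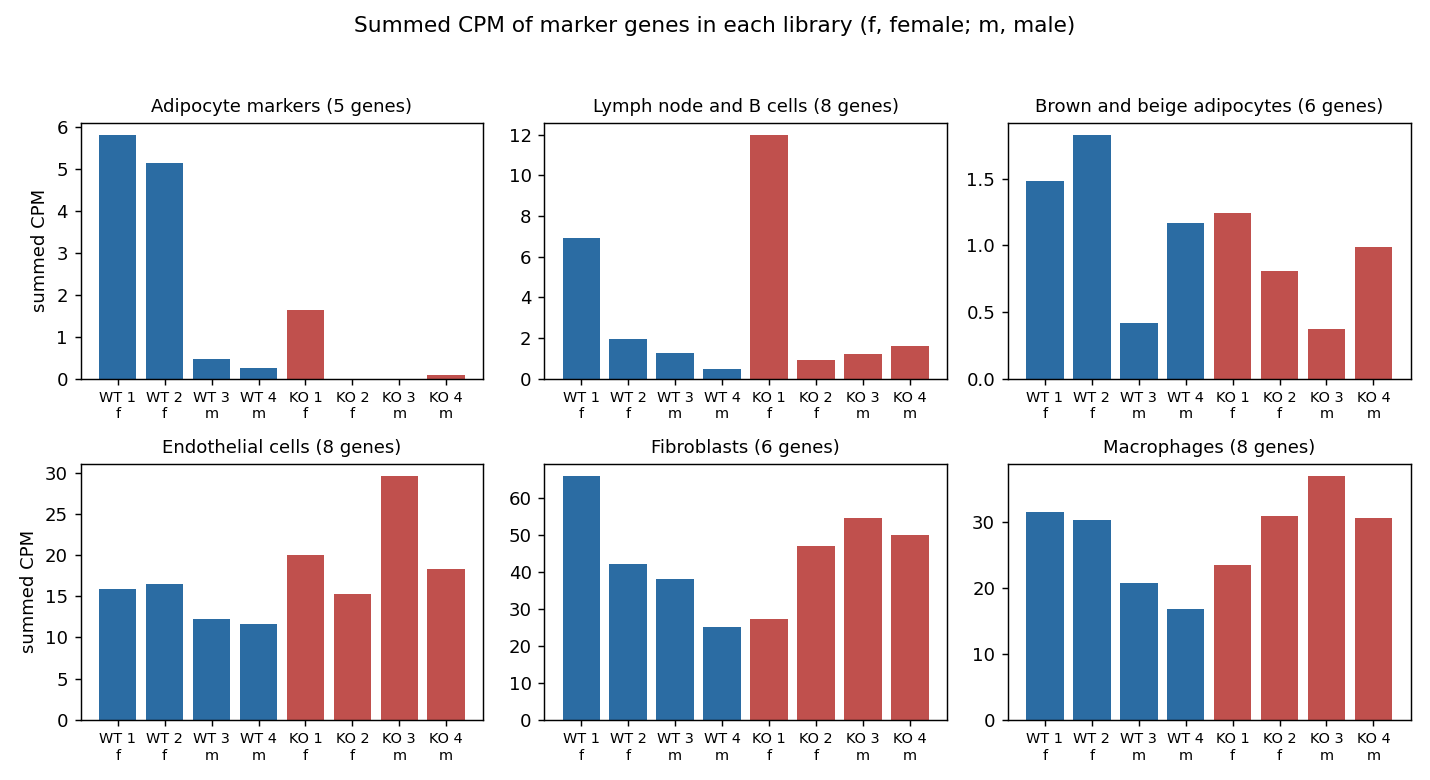
Summed CPM (vertical axis, linear from 0, scaled per panel) of 6 marker lists in each library, with Bach2WT in blue, Bach2KO in red, the mouse number and the sex (f or m) below. Adipocyte markers were high in both Bach2WT females (5.82 and 5.15 CPM) and lower in Bach2KO mouse 1 (1.64 CPM), and lymph node and B cell markers were highest in Bach2KO mouse 1 (12.0 CPM) and Bach2WT mouse 1 (6.94 CPM).

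Of the 9 brown and beige adipocyte markers, the 6 in the table were low everywhere, with a sum of 0.370 to 1.83 CPM. Ucp1, Elovl3 and Otop1 were not in the table and gave no values. Prdm16, a regulator of brown fat identity, had 0.0651 ± 0.0244 FPKM in Bach2KO and 0.104 ± 0.0514 FPKM in Bach2WT mice (SD, n = 4 each). Cidea, a droplet protein of brown fat, had at most 0.0210 FPKM, and Cox8b, a cytochrome oxidase subunit of brown fat and muscle, had 0.646 FPKM in Bach2WT mouse 2 and 0 to 0.268 FPKM elsewhere (both named after their values were seen). The sum of the list was highest in the Bach2WT females (1.48 and 1.83 CPM, against 0.370 to 1.24 CPM in the other 6 libraries), as were Prdm16 values (0.123 and 0.151 FPKM), and the part of these markers in the members' values was not tested.

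The remaining lists of fat cell function were read from the same fit, and of their 60 tested genes 0 passed an adjusted p of 0.05 in edgeR in the comparison of genotype (7 at an unadjusted p under 0.05) or of sex (9 at that level). DESeq2 called 0 of them as well. Among all 12820 genes tested in edgeR, 957 had an unadjusted p under 0.05 for genotype and 678 for sex. Without the filter, edgeR called Scd1, Klf15, Angptl4, Pck1 and Adig in the sex comparison and 0 in that of genotype. All 7 adipocyte regulators tested had higher values in Bach2KO mice (median log2 fold change 0.70), among them Klf15, a factor induced by glucocorticoids and fasting, with 10.7 FPKM in Bach2KO mouse 1 and 1.48 to 3.09 FPKM in the other libraries. Cebpa, a master regulator of fat cells that other tissues also use, had 2.43 ± 0.717 FPKM in Bach2KO and 2.39 ± 0.626 FPKM in Bach2WT mice (SD, n = 4 each). Of 9 genes of the lipid droplet and caveolae, 6 had higher and 3 lower values (median 0.11). Bscl2, the droplet assembly factor seipin, had 3.32 ± 0.932 FPKM against 4.92 ± 1.17 FPKM in Bach2WT mice, and Plin3, a perilipin found in many tissues, 1.45 ± 0.560 FPKM against 1.38 ± 0.173 FPKM. The broadly expressed droplet genes therefore did not share the gaps of the members.

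In lipolysis, 3 of 5 genes had higher values in Bach2KO mice (median 0.02). Pnpla2, the lipase that starts triglyceride breakdown, had 3.64 ± 0.942 FPKM in Bach2KO and 4.16 ± 0.847 FPKM in Bach2WT mice, and Mgll, the lipase of monoglycerides, 2.05 ± 0.723 FPKM and 2.05 ± 0.405 FPKM (SD, n = 4 each). Of 8 genes of fatty acid uptake, 5 had higher values (median 0.50). The acyl-CoA synthetases and transporters Slc27a1 and Slc27a4 had 1.71 ± 0.432 FPKM and 2.05 ± 0.0962 FPKM in Bach2KO against 1.27 ± 0.417 FPKM and 2.33 ± 0.476 FPKM in Bach2WT mice. Angptl4, a fasting-induced inhibitor of lipoprotein lipase named after its values were seen, had 0.602 FPKM in Bach2KO mouse 1 and at most 0.0644 FPKM in the other libraries. Plin4, Klf15 and Angptl4 were thus all highest in Bach2KO mouse 1 and not in the Bach2WT females. For Plin4 this is uncertain because of the overlapping gene Hdgfl2, and a shared cause was not tested.

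Of 6 genes of triglyceride synthesis, 3 had higher and 3 lower values in Bach2KO mice (median −0.03). Agpat2 and Dgat1, acyltransferases of this pathway, had 1.81 ± 0.358 FPKM and 1.14 ± 0.206 FPKM in Bach2KO against 1.73 ± 0.313 FPKM and 1.14 ± 0.191 FPKM in Bach2WT mice. The acyltransferase Dgat2, named after its values were seen, had 0.287 to 0.337 FPKM in Bach2KO mice and 1.10, 0.947, 0.535 and 0.329 FPKM in Bach2WT mice 1 to 4 (log2 fold change −1.17, unadjusted p = 4.72e-03, edgeR adjusted p = 0.513). Of 7 genes of de novo fatty acid synthesis, 6 had lower values (median −0.52), with Scd1 at 0.725 ± 0.248 FPKM in Bach2KO against 1.71 ± 1.08 FPKM in Bach2WT mice (edgeR adjusted p = 0.560) and Acly, which makes cytosolic acetyl-CoA, at 1.49 ± 0.0632 FPKM against 1.64 ± 0.268 FPKM. The list summed to 46.6 and 40.4 CPM in the Bach2WT females and to 20.4 to 27.8 CPM in the other 6 libraries. Genes of fat synthesis thus had their highest sums in the same females as Adipoq, whereas Bach2KO mouse 1, at 24.1 CPM, did not stand out.

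Of 5 genes of glucose uptake and glyceroneogenesis, 2 had higher and 3 lower values in Bach2KO mice (median −0.08). The insulin receptor gene Insr had 0.265 ± 0.137 FPKM against 0.190 ± 0.0482 FPKM, and Pcx, a mitochondrial carboxylase, 3.33 ± 0.366 FPKM against 3.58 ± 0.300 FPKM. Pck1, the enzyme that supplies glycerol for triglyceride in fat and was named after its values were seen, had 0.266, 0.116, 0.0664 and 0 FPKM in Bach2WT mice 1 to 4 and 0.195 FPKM in Bach2KO mouse 1, with 0 in the other Bach2KO mice. It was thus detected in the same 4 libraries as Retn. Of 9 other adipocyte markers tested, 5 had higher values (median 0.13), with Rbp4, a retinol carrier, at 0.587 ± 0.701 FPKM in Bach2KO against 0.527 ± 0.229 FPKM and Lgals12, a droplet galectin, at 0.426 ± 0.317 FPKM against 0.690 ± 0.128 FPKM. Adig, adipogenin, named after its values were seen, was not tested and had 0.723 and 0.278 FPKM in the Bach2WT females, 0.0724 FPKM in Bach2KO mouse 1 and 0 elsewhere.

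The receptors of adiponectin were compared as the other side of the adipokine signal. Of 4 adipokine receptor genes, 3 had higher and 1 lower values in Bach2KO mice (median 0.18). Adipor1 had 4.60 ± 0.407 FPKM in Bach2KO and 6.20 ± 1.18 FPKM in Bach2WT mice (SD, n = 4 each; log2 fold change −0.41, edgeR adjusted p = 0.637), and Adipor2 0.920 ± 0.212 FPKM and 0.888 ± 0.0710 FPKM. Both receptors were present in all libraries, with and without Adipoq.

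Over all 12820 genes tested in edgeR, 957 had an unadjusted p under 0.05 for genotype and 678 for sex. Of 64 tested genes of other cell types, 0 passed an adjusted p of 0.05 in edgeR for genotype (15 at an unadjusted p under 0.05) or for sex (5 at that level). For genotype, DESeq2 called 3 (Cpa1, Try10 and Dlk1) and edgeR without the filter 4 (genes named here for these calls), of which Ccl21a and Glycam1 belong to the lymph node list. For sex, edgeR without the filter called 7 of these genes, in the same fit that called 6 of the adipocyte genes. The 7 were Ccl21a, Glycam1, Cd79a and Cxcl13 of the lymph node list and Ins1, Ins2 and Iapp of the beta cell list (Iapp named for this call). Of the adipocyte progenitor genes, 6 of 7 had higher values in Bach2KO mice (median 0.38), as had 7 of 8 endothelial genes (median 0.55) and 6 of 8 macrophage genes (median 0.51). Endothelial markers, among them Pecam1 and Cdh5, summed to 15.3 to 29.6 CPM in Bach2KO and 11.6 to 16.5 CPM in Bach2WT mice, and macrophage markers, among them C1qa and C1qb, to 23.4 to 36.9 CPM and 16.8 to 31.5 CPM. The progenitor list, with Cd34 and Ly6a, summed to 9.35 to 19.2 CPM and 6.83 to 13.0 CPM. Unlike the adipocyte markers, these lists were above 0 in all libraries. Fabp4, which endothelial cells and macrophages also express, was higher in both Bach2KO males than in both Bach2WT males, as were the sums of endothelial markers (29.6 and 18.3 CPM against 12.3 and 11.6 CPM) and of macrophage markers (36.9 and 30.6 CPM against 20.7 and 16.8 CPM), and their part in the Fabp4 values was not tested.

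Mesothelial genes, with Msln and Upk3b, were even (3 of 6 higher, median −0.01) and summed to 3.97 to 11.8 CPM in Bach2KO and 4.10 to 12.7 CPM in Bach2WT mice. Of 6 fibroblast genes, with Col1a1 and Dcn, 4 had higher values (median 0.08), and the sums were 27.3 to 54.6 CPM and 25.2 to 66.0 CPM. Of 7 beta cell genes, with Ins1 and Ins2, 5 had higher values (median 0.14), and the sums ranged from 172 CPM in Bach2WT mouse 3 to 2200 CPM in Bach2WT mouse 4. Of 2 skeletal muscle genes tested, Ckm and Mylpf, 1 was higher (median −0.49), of 3 lymph node genes tested 1 was higher (median −1.22), and of 2 brown fat genes tested, Ppargc1a and Prdm16, 1 was higher (median 0.12). Of 16 acinar enzyme genes, with Prss2 and Ctrb1, 13 had lower values (median −0.34).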

How the data were processed

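RNA-seq of pancreatic tissue covered 8 mice. The deposited table holds, per gene and library, counts (not normalized), a normalized signal (the authors divided each count by a size factor) and FPKM, which the authors made from that signal and the gene length. The submitters' processing notes list fastp, HISAT2 2.2.1, featureCounts 2.0.6 and the build mm39 (GRCm39). The strand setting and the handling of shared reads are not given in the sources used here. The authors' log2 fold changes and p-values were not used, nor was the normalized signal.

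Groups came from the labels. Counts were tested with edgeR 4.0.16 (quasi-likelihood, TMM, filterByExpr, Benjamini-Hochberg over all genes tested, threshold 0.05) for genotype, for sex with genotype as a covariate, and for their interaction. DESeq2 1.42.0 in R 4.3.3 was an alternative. Standard errors are the fold change divided by the square root of F. CPM and log2 CPM were computed from the counts on genes with TMM factors, and log2 CPM used a prior count of 2. Only the CPM of the floor used no TMM factors. P-values measure the spread between mice. Levels between genes are FPKM. The libraries held 72299745 to 172029360 counts, with a floor of 3 counts. Scripts were tested on simulated data.

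The 10 members and the 19 other lists were chosen with earlier results of these data known. Named genes were the members, from each other list the 2 tested genes of highest mean FPKM and any gene past the threshold, and the 10 tested genes most correlated with Adipoq. Genes named after their values were seen are marked. Promoters were read from RefSeq windows of GRCm38.p6, whose coordinates were not mixed with those of GRCm39.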

Additional observations from a re-analysis of the deposited data

Results flagged for a closer look

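Bach2KO mouse 1, a female, lay far from the other 3 Bach2KO mice for 5 of the 10 adipocyte genes, as judged by the gap to the nearest mouse relative to the range of the group. Its level was 0.297 CPM for Adipoq, 0.0865 CPM for Plin1, 6.62 CPM for Plin4, 0.198 CPM for Retn and 1.06 CPM for Cidec. For Plin1 and Retn the other 3 mice were at 0. The cut-off marks about 1 in 20 groups by chance if values are normally distributed. That rate does not hold for these CPM values, several of which are 0. Since the genes varied together across libraries, these are not 5 separate observations. The mouse keeps its place in all comparisons. No value without it was obtained for Adipoq and Cidec in the genotype comparison, since neither passed the filter in that fit.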

How the results depend on the processing

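Of the genotype comparison, 1 gene passed over all genes tested, 0 with the replicate number as a block, 0 with at least 10 counts in every library, 0 with sex as a covariate, 0 with counts divided by 2, 75 with DESeq2, 73 without the filter and 0 to 0 when leaving out each mouse in turn. Members past the threshold were 0, and 2 without the filter. The labels do not say that the same replicate number in both genotypes pairs the mice. Correlations of their deviations were 0.212, −0.034, −0.041 and −0.054 for mice 1 to 4. Pairs of different numbers had −0.165 to 0.106, so that the value for mice 1 was the highest. In the sex comparison 4 genes passed, against 19 with DESeq2, 152 without the filter and 2 to 9 when leaving out each mouse. The members among them were 0, against 1 with DESeq2, 6 without the filter and 0 to 2 when leaving out each mouse, with 2 without Bach2KO mouse 2. The interaction passed for 0 genes, against 14 with DESeq2 and 92 without the filter. The difference of the leptin ratio between the genotypes was 2.85 with Plin1 as denominator, and 0.11 to 1.87 with Adipoq when leaving out each mouse. Lep was at 0 in 6 libraries, so that each value follows its denominator.

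Directions turned for 3 members. The log2 fold change of Plin4 for genotype was −1.33 without Bach2KO mouse 1 (range −1.33 to 2.63). That of Fabp4 was −0.02 without Bach2WT mouse 3 and −0.11 without Bach2WT mouse 4 (range −0.11 to 0.74). That of Lpl was 0.02 without Bach2KO mouse 2 for genotype (range −0.24 to 0.02), and for sex 0.00 with RLE factors, 0.17 without Bach2KO mouse 1 and 0.05 without Bach2KO mouse 4 (range −0.13 to 0.17). Plin1 kept its direction in the genotype comparison (−9.10 to −4.10, edgeR adjusted p 0.0908 to 0.729). The causes were not tested. Several members had 0 counts in some libraries, where depth limits what can be said, and floors cover counting error only.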
